A study of Mus musculus with 12 samples.

Results

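The insulin-like growth factor axis comprised 10 genes in these data, 2 ligands (Igf1, Igf2), 2 receptors (Igf1r, Igf2r) and 6 binding proteins (Igfbp2 to Igfbp7), each found by its symbol in the platform's probe-to-gene table. They were measured by 23 of the 20380 probe sets that carry a single gene symbol, and they are 10 of 12393 genes tested. The arrays profiled RNA of cultured fetal kidneys from C57BL/6 mice, 6 samples labelled beta-catenin activated and 6 labelled wildtype. The labels also call the activated kidneys tumour-bearing and the wildtype ones normal. All 12 samples share the same handling. Their mothers were injected intraperitoneally with tamoxifen (2 mg for every 40 g they weighed) on embryonic day 10.5, counted from coitus. The labels give day 10.5 for the dissection as well, and the explanted kidneys then spent 3 to 4 days on porous membranes. Insulin, a hormone close in structure to these ligands, was in the medium of both genotypes at 5 µg/mL, beside 5 µg/mL of transferrin and 5 ng/mL of selenium. The allele and the Cre driver are not given in the sources used here, and the labels do not say whether the samples of a group came from separate animals or cultures. P-values therefore measure the spread between these samples, which may be technical.

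Insulin-like growth factors are secreted ligands that act through the tyrosine kinase receptor Igf1r and, below it, the PI3K-Akt-mTOR cascade. Igf2r, the cation-independent mannose 6-phosphate receptor, takes Igf2 up for degradation, and the binding proteins hold the ligands in the extracellular fluid, where proteases release them. Igf2 is an imprinted gene, active from the paternal copy in most fetal tissues, and gain of IGF2 expression is a known event in human Wilms tumour, a childhood kidney tumour that can also carry activating changes of beta-catenin.

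The numbers in the arrays' titles fall into a higher and a lower run of close numbers, each with 3 activated and 3 wildtype arrays. What the runs stand for is not in the labels, so genotype differences of the members are also given within them. Values are log2(intensity + 16) after quantile normalisation, from the brightest probe set of a gene unless another is named. A gene is called where its adjusted p, from limma with Benjamini-Hochberg adjustment over all genes, is under 0.05. The 27 probe sets for bacterial control transcripts reached at most 5.45 on this scale. All 10 members read above that level on all 12 arrays. Six2 of the cap mesenchyme, Foxd1 of the stroma and Calb1 of the ureteric bud also read above it on every array, whereas the ureteric markers Ret and Wnt9b stayed below it on all of them. Apcdd1 and Axin2, known targets of beta-catenin, were 2.90 and 1.78 higher in activated than in wildtype arrays of the lower run (limma, adjusted p = 0.000210 and 0.00379). Apcdd1 was 1.08 higher in activated arrays of the higher run (limma, adjusted p = 0.00689), while Axin2 overlapped between the genotypes there and differed by 0.45 (limma, adjusted p = 0.835). Over all 12 arrays Apcdd1 was called and Axin2 was not (limma, adjusted p = 0.0143 and 0.476). The transcript of beta-catenin itself, Ctnnb1, averaged 12.92 ± 0.06 in activated and 12.98 ± 0.10 in wildtype arrays (SD, n = 6 each), and differed by -0.13 in the higher and 0.02 in the lower run, neither called. In whole organs, fewer cells of a type and less RNA per cell cannot be told apart.

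The sequences before the start sites of Igf1, Igfbp5, Igfbp7 and Igfbp4 are shown because these 4 members differed between the runs of arrays. Each is the 250 bases before the RefSeq start (GRCm38.p6), 5′ to 3′ on the gene's own strand. The Igf1 window is chr10:87860861-87861110 (+ strand), that of Igfbp5 chr1:72874866-72875115 (- strand), that of Igfbp7 chr5:77408046-77408295 (- strand) and that of Igfbp4 chr11:99040994-99041243 (+ strand). Capitals mark the TATA box TATAAA and the GC box GGGCGG, on either strand.
Igf1: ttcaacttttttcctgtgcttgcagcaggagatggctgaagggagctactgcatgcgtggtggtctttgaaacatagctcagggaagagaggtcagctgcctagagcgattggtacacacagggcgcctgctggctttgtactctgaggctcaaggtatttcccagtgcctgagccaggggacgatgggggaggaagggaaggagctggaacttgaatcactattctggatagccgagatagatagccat
Igfbp5: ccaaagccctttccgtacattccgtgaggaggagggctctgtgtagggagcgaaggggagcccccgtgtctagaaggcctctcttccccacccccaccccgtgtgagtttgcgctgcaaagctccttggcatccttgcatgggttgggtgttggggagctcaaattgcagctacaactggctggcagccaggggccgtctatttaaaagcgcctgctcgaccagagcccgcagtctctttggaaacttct
Igfbp7: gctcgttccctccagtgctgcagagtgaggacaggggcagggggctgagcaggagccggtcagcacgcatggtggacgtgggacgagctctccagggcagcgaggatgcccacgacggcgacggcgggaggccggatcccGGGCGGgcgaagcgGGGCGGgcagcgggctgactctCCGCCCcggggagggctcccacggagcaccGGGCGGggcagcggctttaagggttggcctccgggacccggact
Igfbp4: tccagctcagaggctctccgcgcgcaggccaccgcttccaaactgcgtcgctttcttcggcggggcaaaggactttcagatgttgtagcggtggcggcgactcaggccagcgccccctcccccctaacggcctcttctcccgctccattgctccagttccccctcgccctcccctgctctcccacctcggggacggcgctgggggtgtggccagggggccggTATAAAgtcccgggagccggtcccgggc
Igfbp7 holds 4 GC boxes, a motif found in 32.7% of 32851 RefSeq promoters of the same length. Igfbp4 holds a TATA box at -28 from the start, a motif found in 12.4%. Igf1 and Igfbp5 hold neither. The Tcf/Lef core CTTTGAT, found in 3.21% of promoters, and the FoxO core TGTTTAC, found in 3.17%, were searched on both strands and were found neither in these windows nor in the other 10 member promoters, which says only that those letters are not there. The G and C content was 52.8% for Igf1, 58.8% for Igfbp5, 74.0% for Igfbp7 and 69.2% for Igfbp4, against a median of 52.4% over all promoters.

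None of the 10 members was called between activated and wildtype kidneys over all 12 arrays. At an unadjusted p under 0.05 the limma count was also 0 of 10. The background in the same comparison was 0.0242% of genes called and 6.15% at the unadjusted level. The groups overlapped for all 10 members, while 0.5% of all genes did not overlap. Differences ran from -0.45 for Igfbp5 to 0.44 for Igf1, with a median of 0.12 for the members against -0.01 for all genes. With the run as a term in the fit, again no member was called, against 0.105% of all genes. Igf1 and Igfbp5 were the members with an unadjusted p under 0.05 in that fit, against 8.79% of all genes. The plot of values by array shows the members side by side, and the plot of genotype differences gives their intervals.

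**Figure D1:**
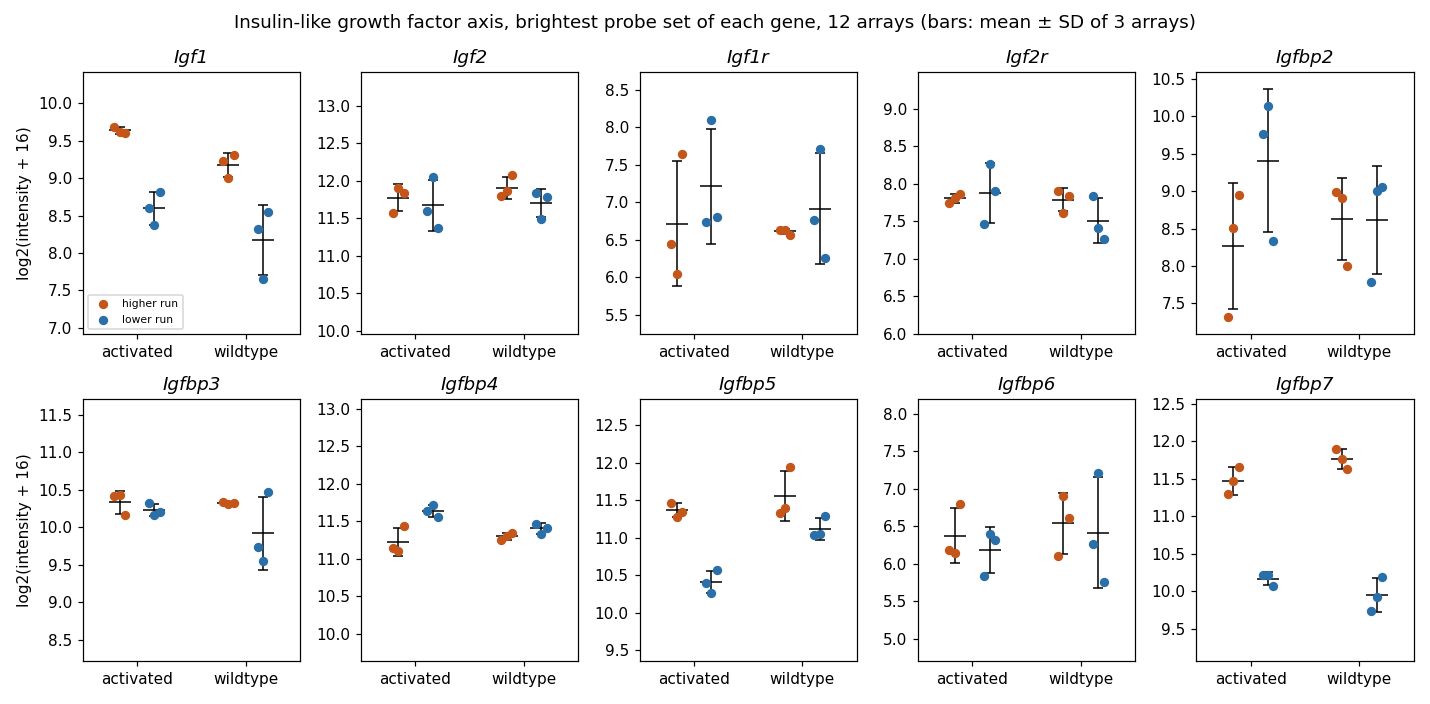
Values of the 10 members on each of the 12 arrays, as log2(intensity + 16) after quantile normalisation, from the brightest probe set of each gene; activated arrays are on the left and wildtype on the right of each panel, the higher run in orange and the lower run in blue. Bars give the mean and SD of 3 arrays; every panel spans the same number of log2 units, and in the panels of Igf1 and Igfbp7 the orange points lie above all blue ones.

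**Figure D2:**
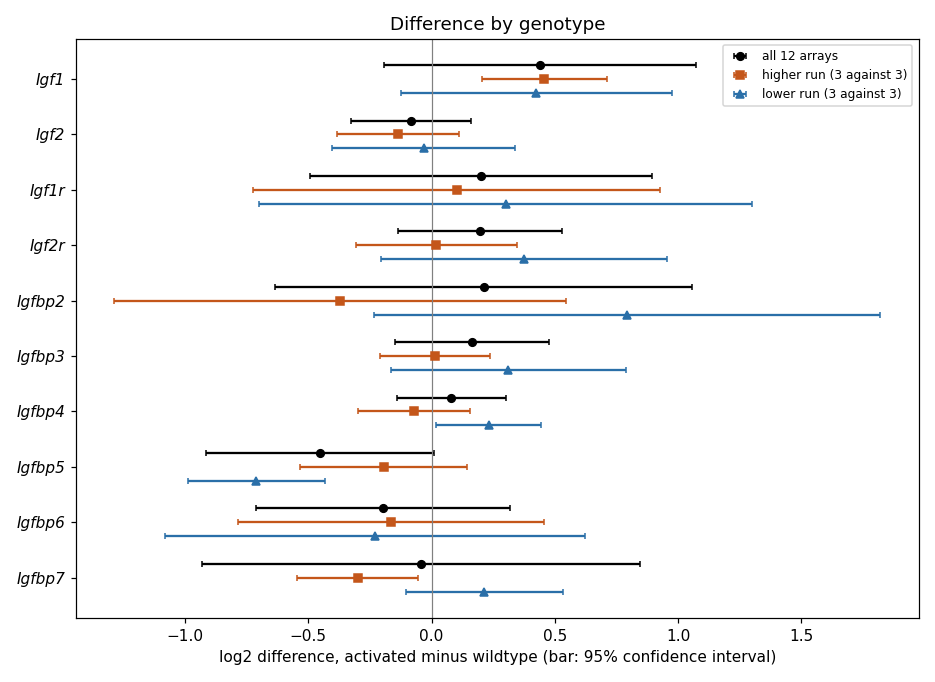
Log2 difference between activated and wildtype kidneys for the 10 members, with 95% confidence intervals, over all 12 arrays (black), in the higher run (orange) and in the lower run (blue). Igfbp5 in the lower run, at -0.71, is the single call in these fits; the interval of Igf2 over all 12 arrays runs from -0.33 to 0.16.

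Igf2, the fetal ligand, was close in both genotypes. On activated arrays it read 11.57, 11.91 and 11.85 in the higher run and 11.60, 12.05 and 11.38 in the lower run. On wildtype arrays it read 11.79, 11.86 and 12.08 in the higher run and 11.84, 11.50 and 11.78 in the lower run. The groups overlapped in both runs. Over all arrays the difference was -0.08, with a 95% interval from -0.33 to 0.16 (limma, adjusted p = 0.961). That interval spans folds of 0.797 to 1.12. A second, dimmer Igf2 probe set (1415931_at) differed by -0.02. Between the runs Igf2 differed by 0.15 (limma, adjusted p = 0.427).

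Igf1, the ligand that carries most of the growth after birth, read higher on activated arrays in both runs without passing the test. Values in the higher run were 9.69, 9.61 and 9.61 on activated arrays and 9.22, 9.00 and 9.31 on wildtype arrays. All 3 activated arrays lay above all 3 wildtype arrays there. Those in the lower run were 8.60, 8.38 and 8.81 on activated arrays and 8.32, 7.65 and 8.55 on wildtype arrays, and these overlapped. The difference was 0.46 in the higher run (SE 0.11, limma, adjusted p = 0.490) and 0.42 in the lower run (SE 0.25, limma, adjusted p = 0.833). With the run as a term it was 0.44 (SE 0.14, limma, adjusted p = 0.298). Adding the 5' to 3' signal ratio of the Gapdh control, a measure of RNA and labelling quality described below, to that fit gave 0.53 and an adjusted p of 0.0468 in limma, the lowest of a range up to 0.595 over the alternatives tried. Of the other Igf1 probe sets, 1419519_at differed by 0.49 in the higher run. The third, 1452014_a_at, was lower on activated arrays of the lower run, a difference of -0.16.

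In the higher run no member was called by genotype (limma), against 0.00807% of all genes. Igf1 was the single member whose genotypes did not overlap there, where 11.3% of all genes did not, and it and Igfbp7 had an unadjusted p under 0.05, as did 6.36% of all genes. In the lower run 2 members did not overlap, Igfbp4 and Igfbp5, against 12.5% of all genes. None of the 10 was free of overlap in the same direction in both runs, against 1.26% of all genes.

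Igf1r, the signalling receptor, showed different patterns in its 2 probe sets. The brightest, 1426565_at, read 6.45, 6.04 and 7.65 on activated arrays of the higher run and 6.73, 8.10 and 6.81 on those of the lower run. On wildtype arrays it read 6.64, 6.63 and 6.57 in the higher run and 6.77, 7.71 and 6.26 in the lower run. Activated 2, activated 6 and wildtype 2 stood above the other 9 arrays. The second probe set, 1452108_at, did not share that pattern. It averaged 6.89 on activated and 6.53 on wildtype arrays of the higher run, and 6.05 on activated and 6.39 on wildtype arrays of the lower run. The genotype difference of Igf1r was 0.20 over all arrays (SE 0.33, limma, adjusted p = 0.968). It turned to -0.12 with the Gapdh ratio described next as a covariate, and to -0.026 without activated 2, and neither was called.

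The 3 arrays with a high Igf1r were those with the highest 5' to 3' ratio of the Gapdh control probe sets, in which a low ratio marks shortened RNA or labelling. The log2 ratio was 0.07 on activated 2, -1.06 on activated 6 and -1.13 on wildtype 2, and at most -2.04 on the others. Over 12 arrays the ratio and the brighter Igf1r set had a Pearson's r of 0.930 (permutation p = 0.0002, adjusted p = 0.0023), and by rank a Spearman's rho of 0.713 (permutation p = 0.0118). Activated 2 and activated 6 had the most extreme ratios, and r without them was 0.858. Within the runs r was 0.940 in the higher run (exact permutation p = 0.0208) and 0.919 in the lower run (exact permutation p = 0.0222). The dimmer Igf1r set gave r = 0.016 (permutation p = 0.962).

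Among 23 probe sets tested against the ratio, 5 had a Benjamini-Hochberg adjusted p under 0.05 for Pearson's r. One was the brighter Igf1r set, and the other 4 were among the 5 dimmer sets of Igfbp4. The set 1423756_s_at of Igfbp4 had r = 0.876 (permutation p = 4e-05, adjusted p = 0.00092), a rho of 0.916 (permutation p = 7e-05), and r = 0.705 without the 2 farthest arrays. Its r was 0.811 in the higher run (exact permutation p = 0.0125) and 0.880 in the lower run (exact permutation p = 0.00278). The other 3 of these Igfbp4 sets had r between 0.743 and 0.838. The remaining dimmer set, 1437406_x_at, had r = -0.069 (permutation p = 0.821). The brightest Igfbp4 set, 1437405_a_at, had r = 0.574 (permutation p = 0.0501, adjusted p = 0.144). Igf1 had r = -0.407 (permutation p = 0.196, adjusted p = 0.337), which was -0.798 without the 2 farthest arrays. Its r was 0.192 in the higher run (exact permutation p = 0.796) and -0.398 in the lower run (exact permutation p = 0.428). The plot against the Gapdh ratio shows the Igf1r sets and 2 of the Igfbp4 sets.

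**Figure D3:**
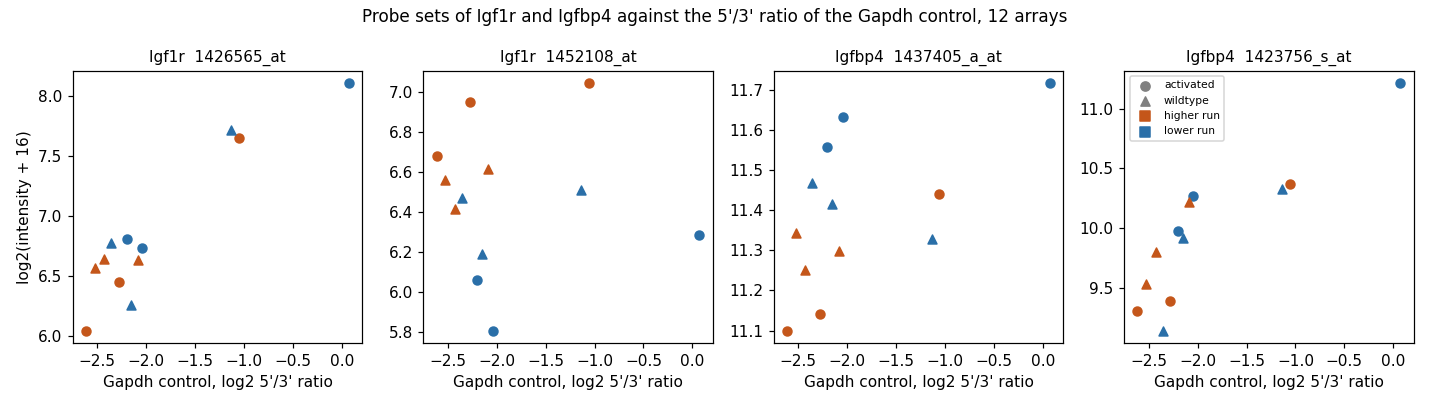
Log2(intensity + 16) of 2 Igf1r and 2 Igfbp4 probe sets against the log2 5' to 3' ratio of the Gapdh control on 12 arrays; circles are activated and triangles wildtype, orange is the higher and blue the lower run. The Igf1r set 1426565_at (r = 0.930) and the Igfbp4 set 1423756_s_at (r = 0.876) rise with the ratio, and the Igf1r set 1452108_at (r = 0.016) does not.

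Igf2r, the clearance receptor, was among the steadier members, with an SD of 0.27 over the 12 arrays. Its means in the higher run were 7.81 ± 0.06 on activated and 7.79 ± 0.16 on wildtype arrays. Its means in the lower run were 7.88 ± 0.40 on activated and 7.51 ± 0.30 on wildtype arrays (SD, n = 3 each). The groups overlapped in both runs. Over all arrays the difference was 0.20, with an interval from -0.14 to 0.53 (limma, adjusted p = 0.923).

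Igfbp5, the most conserved of the binding proteins and one held in extracellular matrix, fell in activated kidneys of the lower run. It read 10.40, 10.26 and 10.56 on activated and 11.03, 11.04 and 11.28 on wildtype arrays of that run, and every activated array lay below every wildtype one. The difference was -0.71 (SE 0.12, limma, adjusted p = 0.0401), a fold of 0.611 with a 95% interval from 0.504 to 0.742. It was the single member called in the lower run, where 0.266% of all genes were called lower and 0.597% in either direction. Arrays of the higher run read 11.46, 11.28 and 11.34 on activated and 11.33, 11.40 and 11.94 on wildtype arrays, which overlapped. The difference there was -0.19 (SE 0.15, limma, adjusted p = 0.889). The genotype effect of Igfbp5 differed between the runs by 0.52 (SE 0.20, limma, adjusted p = 0.671), which did not pass the test.

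The call on Igfbp5 was narrow. Leaving out any 1 of the 6 arrays ended it, with differences from -0.79 to -0.63. A further 5 settings also ended it, and over all 15 alternatives the adjusted p in limma ran from 0.00779 to 0.519. Its dimmer probe set, 1422313_a_at, differed by -0.41 between activated and wildtype arrays of the lower run and by 0.50 in the higher run, neither called. Beside it in the lower run, the cap mesenchyme markers Six2 and Meox1 fell by 2.01 and 1.52 on activated arrays (limma, adjusted p = 0.00155 and 0.0250), 2 called of 6 on that list. The summed intensity of the 6 was 359.2 to 557 on activated and 1603 to 1882 on wildtype arrays. The stromal markers, 1 called lower of 8, summed to 10451 to 11253 on activated and 11933 to 13392 on wildtype arrays. Of these 8 stromal markers, 2 were higher on activated arrays. Col3a1, with a mean of 12.28 over 12 arrays, was the brightest and weighs most in that sum. With the run as a term, Dcn of that list was called higher on activated arrays, by 0.72 (limma, adjusted p = 0.00668). The ureteric bud markers, 1 called lower of 6 (Calb1), summed to 2275 to 2961 on activated and 3890 to 4660 on wildtype arrays. Of these 6 ureteric markers, 2 were higher on activated arrays. Calb1 and Krt8, with means of 11.17 and 9.90 over 12 arrays, were the brightest and weigh most in that sum. Beside the calls on these 3 lists, 0.266% of all genes were called lower in the lower run. None of the sums of these 3 lists overlapped between the genotypes there, while the sums of all other marker lists did. Of single genes in the lower run, 12.5% did not overlap, which is not a background for sums. In the higher run the ureteric bud sums were again lower on activated arrays, 3058 to 3771 against 4169 to 4931. The stromal sums there were higher, 14531 to 14976 against 11889 to 13611. Endothelial sums (774 to 868 against 459 to 588) and smooth muscle sums (5450 to 6733 against 4490 to 5240) were also higher on activated arrays there. Erythroid sums were lower on them, 163 to 191 against 204 to 233. The sums of the cap mesenchyme and of the remaining lists overlapped there. The part of these cells in the Igfbp5 difference was not tested.

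Igfbp4, a binding protein that mainly inhibits the ligands and is cut by Pappa, read 11.63, 11.72 and 11.56 on activated and 11.47, 11.33 and 11.42 on wildtype arrays of the lower run. The groups did not overlap, and the difference of 0.23 was not called (SE 0.10, limma, adjusted p = 0.609). Arrays of the higher run read 11.14, 11.10 and 11.44 on activated and 11.25, 11.30 and 11.34 on wildtype arrays, a difference of -0.07. All 6 of its probe sets were higher on activated arrays of the lower run, by 0.22 to 0.75, and all 6 were lower on those of the higher run, with differences from -0.85 to -0.07. None of these was called, and 4 of the 6 follow the Gapdh ratio as given above.

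Igfbp7, a secreted protein of vessels and matrix that binds the ligands weakly, averaged 11.47 ± 0.18 on activated and 11.77 ± 0.13 on wildtype arrays of the higher run. Its lower-run means were 10.16 ± 0.09 on activated and 9.95 ± 0.23 on wildtype arrays (SD, n = 3 each). The genotype difference was -0.30 in the higher and 0.21 in the lower run (limma, adjusted p = 0.760 and 0.873). Their difference of -0.51 (SE 0.18) had an adjusted p of 0.481 in limma. The second Igfbp7 set, 1423585_at, went the other way, by 0.045 in the higher and -0.36 in the lower run. The difference between the runs was 0.40 for that set (SE 0.37), and none of these was called. In the lower run that set read below the control level on activated 1 and activated 2, at 5.09 and 5.26. Igfbp4, Igfbp5 and Igfbp7 had an unadjusted p under 0.05 in that test of the difference, as did 6.11% of all genes, and none of the 10 members was called against 0.331% of all genes.

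Igfbp2, an abundant binding protein of fetal serum, varied widely within groups. It read 7.32, 8.51 and 8.95 on activated arrays of the higher run and 9.76, 10.13 and 8.33 on those of the lower run. Wildtype arrays averaged 8.63 ± 0.55 in the higher run and 8.61 ± 0.72 in the lower run (SD, n = 3 each). The difference was -0.37 in the higher and 0.79 in the lower run (limma, adjusted p = 0.928 and 0.834), with intervals that both include 0. Over 12 arrays Igfbp2 and the Gapdh ratio had a Pearson's r of 0.642 (permutation p = 0.0244, adjusted p = 0.0934), and 0.390 without the 2 farthest arrays. With that ratio as a covariate its genotype difference over all arrays turned from 0.21 to -0.069, and neither was called. Igfbp3, the main carrier in adult serum, averaged 10.28 ± 0.12 on activated and 10.12 ± 0.38 on wildtype arrays. Igfbp6, which prefers Igf2, averaged 6.28 ± 0.32 on activated and 6.48 ± 0.54 on wildtype arrays (SD, n = 6 each). Igfbp3 differed by 0.01 in the higher and 0.31 in the lower run, and Igfbp6 by -0.16 and -0.23. Neither was called in any of the 6 comparisons.

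More members were called between the runs than between the genotypes. With genotype as a term, 4 of 10 were called between the higher and the lower run, against 11.1% of all genes. Igf1, Igfbp5 and Igfbp7 were higher in the higher run, in a direction called for 6.94% of all genes, and Igfbp4 was lower, as were 4.19%. In 2 members, Igf1 and Igfbp7, the runs did not overlap, against 6.2% of all genes. The plot by probe set shows how far the sets of a gene share these differences.

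Igfbp7 had the widest gap of the members between the runs. It read 11.29 to 11.90 on the 6 arrays of the higher run and 9.73 to 10.21 on those of the lower run. The difference was 1.56 (SE 0.11, limma, adjusted p = 3.02e-07), a fold of 2.95 with an interval from 2.51 to 3.47. Its second set, 1423585_at, differed by 1.49 and was also called, while the third, 1437804_at, stayed below the control level of 5.45 on every array. The second set was below that level on activated 1 (5.09) and activated 2 (5.26), both of the lower run. The value for Igfbp7 was 1.05 to 1.82 over all alternatives and was called in each of them.

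Igf1 averaged 9.41 ± 0.27 in the higher and 8.38 ± 0.40 in the lower run (SD, n = 6 each). The difference was 1.02 (SE 0.14, limma, adjusted p = 0.000146), a fold of 2.03 with an interval from 1.66 to 2.48. When every probe set was tested alone, 2 of its 3 were called, against 8.5% of all probe sets. Igfbp5 averaged 11.46 ± 0.24 in the higher and 10.76 ± 0.41 in the lower run, a difference of 0.70 (SE 0.12, limma, adjusted p = 0.00124). In wildtype arrays alone the Igfbp5 difference was 0.44 and was not called (limma, adjusted p = 0.162). Igfbp4 averaged 11.26 ± 0.13 in the higher and 11.52 ± 0.14 in the lower run, a difference of -0.26 (SE 0.08, limma, adjusted p = 0.0406). That call was lost in 16 of 23 alternatives, in which the value ran from -0.41 to -0.11, and with every probe set tested alone it had an adjusted p of 0.0535 in limma.

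**Figure D4:**
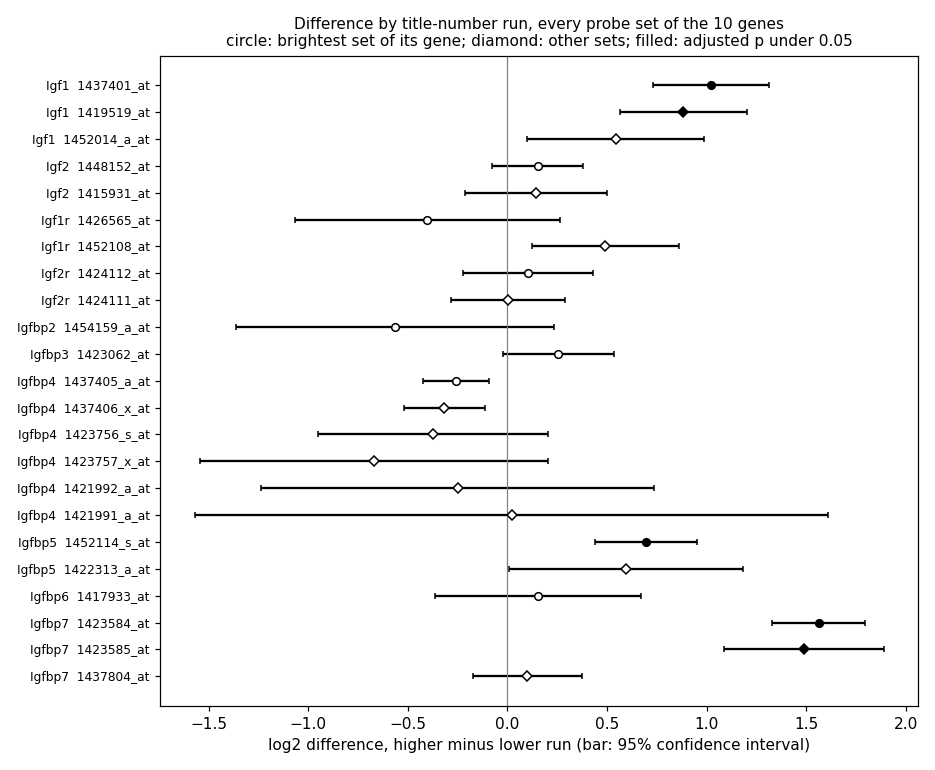
Log2 difference between the higher and the lower run for all 23 probe sets of the 10 members, genotype as a term, with 95% confidence intervals; circles are the brightest set of a gene, diamonds the others, and filled symbols have an adjusted p under 0.05 over all probe sets. Filled symbols are 2 sets each of Igf1 and Igfbp7 and 1 of Igfbp5, and the brightest Igfbp4 set, at -0.26, is open because the adjustment here is over 20380 probe sets.

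Markers of several other cells differed between the runs, where 6.94% of all genes were called higher and 4.19% lower. Macrophage markers were higher in the higher run, 5 called of 6, among them Csf1r by 1.07 and Tyrobp by 1.22. Their summed intensity was 1384 to 2036 in the higher and 627 to 1250 in the lower run. Smooth muscle markers were higher, 3 called of 4, with Acta2 at 1.18, and summed to 4490 to 6733 in the higher and 2006 to 2620 in the lower run. Acta2 weighs most in that sum, with a mean of 11.67 over 12 arrays against 7.995 for Tagln, the next brightest. Myh11, which defines mature smooth muscle, averaged below the control level. The embryonic globins Hba-x and Hbb-bh1 were lower, with differences of -2.11 and -3.02, 2 called of 4 erythroid markers, and the list summed to 163 to 233 in the higher and 648.5 to 1510 in the lower run. Other markers called higher in the higher run were 1 of 6 of the ureteric bud, 2 of 8 of the stroma, 2 of 6 of the cap mesenchyme, 2 of 3 of podocytes, 2 of 5 of the proximal tubule and 1 of 5 of muscle. None of the 7 endothelial markers was called (limma), nor had an unadjusted p under 0.05. The part of these cells in the differences of Igf1, Igfbp4, Igfbp5 and Igfbp7 was not tested.

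The genes whose values lay nearest to those of the 3 most variable members, by root mean square difference of mean-centred log2 values over 12 arrays, were as follows. Nearest to Igfbp7 were F3 (0.171), which codes for tissue factor, Anxa1 (0.208) and Timp1 (0.219), an inhibitor of matrix proteases. Between the runs Timp1 differed by 1.62 and Anxa1 by 1.63. Nearest to Igfbp2 were Rac3 (0.337), Kcnmb4 (0.372) and Prrx2 (0.394). Nearest to the brighter Igf1r set were Naxe (0.211), Prep (0.214) and Sgta (0.246), whose highest values were on activated 2, as for Igf1r.

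The rest of the pathway was followed through 6 lists. Proteases of the binding proteins and their inhibitors had 7 of 8 genes measured. Htra1, a secreted protease that cuts binding proteins, rose in activated kidneys of the lower run. It read 8.02, 7.28 and 7.89 on activated and 5.56, 5.31 and 5.69 on wildtype arrays, a difference of 2.21 (SE 0.28, limma, adjusted p = 0.00712). Arrays of the higher run read 7.51, 7.31 and 7.13 on activated and 7.29, 6.46 and 6.14 on wildtype arrays, which overlapped, a difference of 0.69 (limma, adjusted p = 0.776). The other 6 measured were not called by genotype in any run. In the lower run 1 of 7 was thus called higher, against 0.331% of all genes. Between the runs, where 6.94% of all genes were called higher, Adamts1 (0.70), Mmp2 (0.57) and Mmp14 (0.62) were called higher, 3 of 7.

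Of 4 genes measured on the list for the Igf2 locus and transcript, Plagl1, an imprinted zinc finger factor known in mouse to raise Igf2, fell in activated kidneys of the lower run. It read 12.30, 12.16 and 12.16 on activated and 12.80, 12.74 and 12.68 on wildtype arrays, a difference of -0.53 (SE 0.08, limma, adjusted p = 0.0218). That made 1 called lower of 4 in that run, against 0.266% of all genes. In the higher run the difference was -0.13 (limma, adjusted p = 0.878). Igf2bp1, which binds Igf2 mRNA, was lower in the higher run than in the lower, a difference of -0.66 (limma, adjusted p = 0.0244). That made 1 called lower of 4 between the runs, against 4.19% of all genes. The imprinted neighbour H19 was not analysed here.

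Receptor adaptors and the PI3K-Akt-mTOR cascade had 25 of 30 genes measured, of which Irs2, Irs4, Foxo4 and Rictor averaged below the control level. By genotype 0 were called in limma over all arrays, in the higher run or in the lower run. Of all genes, 0.0242%, 0.00807% and 0.597% were called, in that order. At an unadjusted p under 0.05 there were 2 over all arrays, and 1 in each run. The shares of all genes at that level were 6.15% over all arrays, 6.36% in the higher and 7.07% in the lower run. Between the runs 5 of 25 were called, all higher, against 6.94% of all genes: Foxo1 by 0.64, Pik3r1 by 0.57, Eif4ebp1 by 0.48, Foxo3 by 0.46 and Gsk3b by 0.41. The median of the list was 0.06, against -0.02 for all genes. Genes known to be induced by FoxO factors, which Akt holds out of the nucleus, had 12 of 13 measured and 0 called by genotype in limma. At an unadjusted p under 0.05 there were 2 over all arrays, 2 in the higher run, 3 in the lower run and 4 with the run as a term. The shares of all genes at that level were 6.15%, 6.36%, 7.07% and 8.79%, in that order. Irs2, Insr, Pck1 and G6pc of this list averaged below the control level. Between the runs Bcl6 (1.29), Klf6 (0.92) and Cdkn1b (0.56) were called higher, 3 of 12, against 6.94% of all genes.

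Mannose 6-phosphate sorting, the other role of Igf2r, had 10 of 15 genes measured and 0 called by genotype in limma. Of all genes, 0.0242% were called over all arrays, 0.00807% in the higher and 0.597% in the lower run. At an unadjusted p under 0.05 there were 0 over all arrays, 2 in the higher run, 0 in the lower run and 1 with the run as a term. The shares of all genes at that level were 6.15%, 6.36%, 7.07% and 8.79%, in that order. Between the runs 4 of 10 were called, all higher, against the same 6.94%: the lysosomal proteases Ctsb (0.94), Ctsl (0.72) and Ctsd (0.63), and the lysosomal membrane protein Lamp1 (0.44). Other ligands, receptors and binding proteins had 7 of 8 genes measured and none called in any comparison. At an unadjusted p under 0.05 the count over all arrays was 3 of 7, against 6.15% of all genes. These were Ghr, Igfals and Igfbpl1. The growth hormone receptor Ghr was the single one of the 7 to average above the control level. It differed by -0.59 in the lower run (limma, adjusted p = 0.0883) and by 0.04 in the higher run. Igfals and Igfbpl1 differed over all arrays by -0.52 and 0.34, at levels below the controls. The Igfals difference was -0.80 in the higher and -0.24 in the lower run, and that of Igfbpl1 0.52 and 0.17.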

How the data were processed

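The deposited table holds 1 linear intensity per probe set and array, already scaled per array by the authors (trimmed means of 250.099 to 250.126); per the labels' protocols, Trizol RNA was labelled with an Affymetrix 3' kit. Which software made these values is not stated there. Intensities were taken as log2(intensity + 16), which understates folds of dim genes, and quantile normalised, as array medians differed by up to 0.29. Of 22690 probe sets, 691 with several symbols, 1555 with none and 64 controls were left out. A gene was represented by its brightest probe set. Of 12393 gene IDs, 12369 were found in the RefSeq table of GRCm38.p6, with the same symbols. Differences were tested with limma 3.58.1 (R 4.3.3; variance trend, Benjamini-Hochberg, threshold 0.05), tested on simulated data beforehand. Groups came from the genotype label. The number of arrays limits the precision. Permutation tests were two-sided, with 100000 resamples over 12 arrays and exact within runs. All 10 members are named, and from the pathway lists every gene called, otherwise up to 3 with the smallest p. The members and lists were chosen with earlier results of these data known. Marker lists covered cap mesenchyme, ureteric bud, stroma, endothelium, podocyte, proximal tubule, macrophage, erythroid, muscle and smooth muscle. Alternatives were other normalisation, dim-gene filter, probe-set rule, variance, pseudocount, array weights, the Gapdh 5' to 3' ratio as a covariate, subsets of arrays and leaving out each array.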

Additional observations from a re-analysis of the deposited data

Results flagged for a closer look

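Of 94 groups of 6 values checked, 2 held an array far from the others by Dixon's criterion, which by chance picks about 1 in 20 groups. The brightest Igf1r set, 1426565_at, read 7.71 on wildtype 2 and 6.26 to 6.77 on the other wildtype arrays. The Igfbp7 set 1437804_at read 4.24 on activated 3 and 4.50 to 4.62 on the other activated arrays, all below the bacterial control level. The effect of genotype on Apcdd1, a target of beta-catenin, differed between the runs by -1.82 (higher minus lower run, limma, adjusted p = 0.00194); it was higher on activated arrays of both runs.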

How the results depend on the processing

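No paired analysis was possible because each title number belongs to a single array, so no number joins an activated to a wildtype array. The run, which both genotypes share, was fitted as a term, and replicate numbers here only name a sample. The 10 members in 6 comparisons gave 60 results and 1150 alternatives: 1058 kept direction and side of the threshold, 28 lost a call, 1 gained one and 63 turned direction. Those that lost a call were of Igfbp5 in the lower run, of Igfbp4 between the runs, and of Igfbp5 between the runs in wildtype arrays. Igf1 gained one, with run and Gapdh ratio in the fit. All results that turned were uncalled. Where no cause is given, it was not tested.

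Genes called in all 12 arrays numbered 3, against 1 with the mean of probe sets, 1 without a variance trend, 5 with the Gapdh ratio as a covariate and 0 to 4 leaving out 1 array. With the run as a term they numbered 13, against 8 centred on array medians, 8 with the mean of probe sets, 7 without the trend, 91 with the Gapdh ratio (1 member) and 4 to 20 leaving out 1 array. In the lower run they numbered 74, against 39 without the trend, 186 with array weights, 154 with the Gapdh ratio (chosen after seeing the data) and 30 to 87 leaving out 1 array. Members called there numbered 0 with deposited values, centring, the mean of probe sets, every probe set alone, no trend, and without any 1 array. In the higher run 1 gene was called, against 2 with centring, 0 with the mean of probe sets, 0 without the trend, 3 with the Gapdh ratio (chosen after seeing the data) and 0 to 1 leaving out 1 array. The genotype effect differed between the runs for 41 genes, against 18 with centring, 24 without the trend, 88 with array weights and 16 to 47 leaving out 1 array. Between the runs 1379 were called, against 631 in wildtype arrays (2 members) and 345 in activated arrays, each with fewer samples.

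Over all 12 arrays the genotype difference turned for Igfbp2 with array weights (-0.029) and, with the Gapdh ratio, for Igf1r (-0.12), Igfbp2 (-0.069) and Igfbp7 (0.095). With the run as a term it turned for Igfbp2 with array weights (-0.026) and, with the Gapdh ratio, for Igf1r (-0.12) and Igfbp2 (-0.043). In the lower run the mean of probe sets turned Igf1r (-0.021) and Igfbp7 (-0.073), and the Gapdh ratio turned Igf1r (-0.034). In the higher run Igf2r turned with deposited values (-0.010), centring (-0.000267) and array weights (-0.0069), Igfbp5 with the mean of probe sets (0.15), and Igf1r with array weights (-0.13) and the Gapdh ratio (-0.25). The difference between the runs turned with the mean of probe sets for Igf1r (0.25), Igf2 (0.046) and Igfbp7 (0.010), and for Igf2 with array weights (0.037). Between the runs Igf1r turned with the mean of probe sets (0.045), Igfbp2 in wildtype arrays (0.016) and Igf2r in activated arrays (-0.072).

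Leaving out 1 array moved the genotype difference over all 12 arrays from -0.026 to 0.39 for Igf1r, -0.048 to 0.51 for Igfbp2 and -0.27 to 0.17 for Igfbp7. With the run as a term it moved from -0.0069 to 0.37 for Igf1r, -0.037 to 0.48 for Igfbp2 and -0.12 to 0.026 for Igfbp7. In the lower run it moved from -0.14 to 0.70 for Igf1r, -0.22 to 0.12 for Igf2 and -0.56 to 0.17 for Igfbp6. In the higher run it moved from -0.37 to 0.44 for Igf1r, -0.068 to 0.080 for Igf2r, -0.72 to 0.099 for Igfbp2, -0.036 to 0.10 for Igfbp3 and -0.38 to 0.016 for Igfbp6. The difference between the runs moved from -0.15 to 0.29 for Igf1, -0.67 to 0.25 for Igf1r, -0.25 to 0.082 for Igf2 and -0.33 to 0.39 for Igfbp6.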
